A study of Mus musculus with 35 samples.

Results

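Small proline-rich (Sprr) genes and proliferin genes were followed in RNA-Seq of mouse cardiac fibroblasts (CFs) and hearts in which IAMP, the micropeptide encoded by 4930523C07Rik, was knocked down or knocked out. The 6 genes were Sprr1a, Sprr2d, Sprr2e, Sprr2f, Prl2c2 and Prl2c3, picked by symbol out of the 55487 genes in every table. They had been chosen as being among the largest rises after IAMP knockdown, so the difference between each siRNA and the control is given for them as a description, without a test. Sprr1a went against that choice, since none of the 6 comparisons of an siRNA with the control passed the threshold for it in either direction and its mean was below the control in 4 of them.

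The data were 35 libraries, 27 of adult mouse CFs and 8 of hearts. The CFs were untreated, given IL-17 or given TGF-β, and each of these sets held 3 libraries with a control siRNA (Scrambled), 3 with a first IAMP siRNA (siR-1) and 3 with a second (siR-2). Under IL-17 the siRNA acted for 24 hours before 24 hours of the cytokine, and for untreated and TGF-β cells no time was given in the sources used here. The hearts came from C57BL/6 mice, 4 heterozygous (HET) and 4 homozygous for the IAMP-KO allele, taken at 8 weeks of age. Each set was deposited as a table of its own, so that a stimulus and its table cannot be told apart. The siRNAs lower the transcript without removing it, whereas the KO allele is a frameshift that leaves the transcript in place, and the comparison group of the hearts carried that allele too. The CFs were cells that stuck to collagen-coated plates, with no sort, and nothing in the labels says that the 3 libraries of a group came from separate cultures, so that p-values measure only the spread between these libraries.

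Small proline-rich proteins are short, proline-, glutamine- and cysteine-rich proteins that transglutaminases crosslink into the cornified envelope, the protein shell under the membrane of terminally differentiating keratinocytes. Their genes lie side by side in the epidermal differentiation complex, and Sprr1a is also known as a gene that injured neurons and stressed cardiomyocytes switch on. Proliferins, encoded by the Prl2c genes, are secreted glycoproteins of the prolactin family, made in bulk by placental giant cells, and were first found as transcripts that serum induces in cultured mouse fibroblasts. They are known to bind the cation-independent mannose 6-phosphate receptor, Igf2r, and to promote blood vessel growth.

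In the GRCm38 annotation (GENCODE vM21) the Sprr genes stood in a row on chromosome 3. Sprr2d (ENSMUSG00000042212) ran from 92339140 to 92340873, Sprr2e (ENSMUSG00000055030) from 92352143 to 92353449 and Sprr2f (ENSMUSG00000050635) from 92365187 to 92366442, all 3 on the plus strand. Sprr1a (ENSMUSG00000050359) lay further along on the minus strand, from 92483952 to 92485895. On chromosome 13, both on the minus strand, Prl2c3 (ENSMUSG00000056457) ran from 12790816 to 12800079 and Prl2c2 (ENSMUSG00000079092) from 12996125 to 13005383. None of the 6 overlapped another annotated gene.

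How far the copies share sequence decides how far their counts can be read apart. The transcripts of Prl2c2 and Prl2c3 were 99.5% identical over 842 aligned bases. Of all stretches of 100 bases in the transcripts of Prl2c2, 56.9% also occurred in another gene (Prl2c3, Gm7040 or Prl2c5), and 44.7% of those of Prl2c3 did. By contrast, Sprr1a, Sprr2d and Sprr2f shared no such stretch with another gene and Sprr2e shared 1.09% of its own, with Sprr2i. Of stretches of 50 bases, Sprr2e shared 10.2%, Sprr2d 4.27%, Sprr2f 0.714% and Sprr1a 0%, against 83.3% for Prl2c2 and 60% for Prl2c3. Over their aligned bases the Sprr2 members were 79.4% (Sprr2d and Sprr2f), 82.5% (Sprr2e and Sprr2f) and 86.3% (Sprr2d and Sprr2e) identical. Prl2c2 and Prl2c3 are therefore read as uncertain singly and were also read as a sum over the 4 Prl2c genes, and the Sprr2 genes as a sum over all 13.

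The stretches in front of the genes are shown because Sprr2d, Sprr2e and Sprr2f, which stand in a row, carry the same pair of short motifs there, and Sprr1a only the first of them. The motifs are not set against the levels, and Sprr2a1 and Sprr2a2, whose windows hold neither, were also higher with the siRNAs (1.35-fold and 1.41-fold for siR-1, then 1.68-fold and 1.85-fold for siR-2 in untreated cells). The sequences are from RefSeq on GRCm38.p6, 5′ to 3′ on the strand of the gene, and end at the last base before the gene. They are chr3:92338890-92339139 for Sprr2d, chr3:92351893-92352142 for Sprr2e and chr3:92364937-92365186 for Sprr2f on the plus strand, and chr3:92485896-92486131 for Sprr1a and chr13:12800080-12800329 for Prl2c3 on the minus strand. Capitals mark an AP-1 element (TGAGTCA) and an octamer (ATTTGCAT) in the Sprr genes, and in Prl2c3 the core of a hypoxia response element read on the other strand (CACGT).
Sprr2d: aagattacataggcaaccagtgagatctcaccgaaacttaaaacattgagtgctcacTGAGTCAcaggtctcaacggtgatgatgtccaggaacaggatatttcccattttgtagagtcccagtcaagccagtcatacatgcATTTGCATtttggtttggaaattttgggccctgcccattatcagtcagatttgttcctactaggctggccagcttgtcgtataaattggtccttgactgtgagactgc
Sprr2e: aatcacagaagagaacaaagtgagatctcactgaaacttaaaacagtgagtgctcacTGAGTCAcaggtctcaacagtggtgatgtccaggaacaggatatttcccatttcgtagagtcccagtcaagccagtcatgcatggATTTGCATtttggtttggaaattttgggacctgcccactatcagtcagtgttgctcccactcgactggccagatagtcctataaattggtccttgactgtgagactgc
Sprr2f: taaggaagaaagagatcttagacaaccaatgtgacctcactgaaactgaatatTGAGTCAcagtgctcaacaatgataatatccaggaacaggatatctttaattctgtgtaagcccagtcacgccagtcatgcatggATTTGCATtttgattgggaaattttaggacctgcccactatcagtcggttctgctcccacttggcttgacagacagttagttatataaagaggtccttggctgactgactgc
Sprr1a: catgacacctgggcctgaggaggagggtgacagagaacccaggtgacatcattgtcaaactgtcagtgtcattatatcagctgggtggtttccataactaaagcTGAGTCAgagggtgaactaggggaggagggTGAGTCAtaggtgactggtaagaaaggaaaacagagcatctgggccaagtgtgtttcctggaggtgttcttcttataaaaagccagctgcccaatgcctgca
Prl2c3: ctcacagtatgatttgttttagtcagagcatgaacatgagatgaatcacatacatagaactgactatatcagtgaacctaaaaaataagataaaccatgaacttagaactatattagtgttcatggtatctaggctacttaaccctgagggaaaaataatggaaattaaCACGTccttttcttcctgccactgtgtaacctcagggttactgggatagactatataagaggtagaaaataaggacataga

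Counted from the RefSeq start, the AP-1 element began at −193 in Sprr2d and in Sprr2e and at −197 in Sprr2f, and the octamer at −108, −108 and −112. In Sprr1a 2 AP-1 elements began at −146 and −116, with no octamer. Windows of 300 bases, from 250 before the start to 50 after it, were searched on both strands for the AP-1 element TGAGTCA, the octamer ATTTGCAT, the hypoxia response core ACGTG and the STAT spacing motif TTCNNNGAA, and in these genes no match overlapped another. Among 32851 such windows, 5.2% held TGAGTCA, 1.74% held ATTTGCAT and 0.134% held both. Both were found in 7 of the 10 Sprr2 genes with a window, which were Sprr2b, Sprr2d, Sprr2e, Sprr2f, Sprr2h, Sprr2i and Sprr2k. The windows of the 3 members are near copies of each other (89.9% identical between Sprr2d and Sprr2e, 78.7% between Sprr2d and Sprr2f and 81.5% between Sprr2e and Sprr2f), so these are not separate occurrences, and the other 4 were not compared. In Prl2c3 the CACGT began at −81 and a TTCNNNGAA match at 25, motifs that 19.6% and 8.3% of all windows held, and Sprr2f had a CACGT at 14, past the stretch shown. A match is a run of letters and says nothing of binding. Prl2c2 and Sprr2g had no entry in the table of promoters.

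A CF library held 104139670 to 119232309 estimated counts and a heart 23497027 to 23857313 counts. In CFs 1 read pair is worth about 6 estimated counts in long genes and fewer in short ones. The detection floor was therefore set at 3 read pairs, which is 18 estimated counts per library, and in hearts at 3 counts. Where a whole group lay at or under this floor, the fold against it is a lower bound ("at least"), and the floor covers counting error only. Levels are given as CPM, counts scaled to library size after TMM normalization over all 27 CF libraries. Genes were called by edgeR's quasi-likelihood test at a Benjamini-Hochberg adjusted p of at most 0.05 and a change of at least 2-fold, or of at least 1.5-fold between siRNAs under IL-17 and TGF-β.

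The siRNAs lowered their target throughout. 4930523C07Rik was 87.2% (siR-1) and 92.2% (siR-2) lower than with Scrambled in untreated CFs, 86.1% and 90.6% lower under IL-17 and 78.8% and 84% lower under TGF-β, with no overlap between libraries. In the KO hearts its RNA was 5.77% lower than in HET hearts (16.1 against 17.05 CPM, libraries overlapping), which checks nothing, since the allele leaves the transcript.

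**Figure D1:**
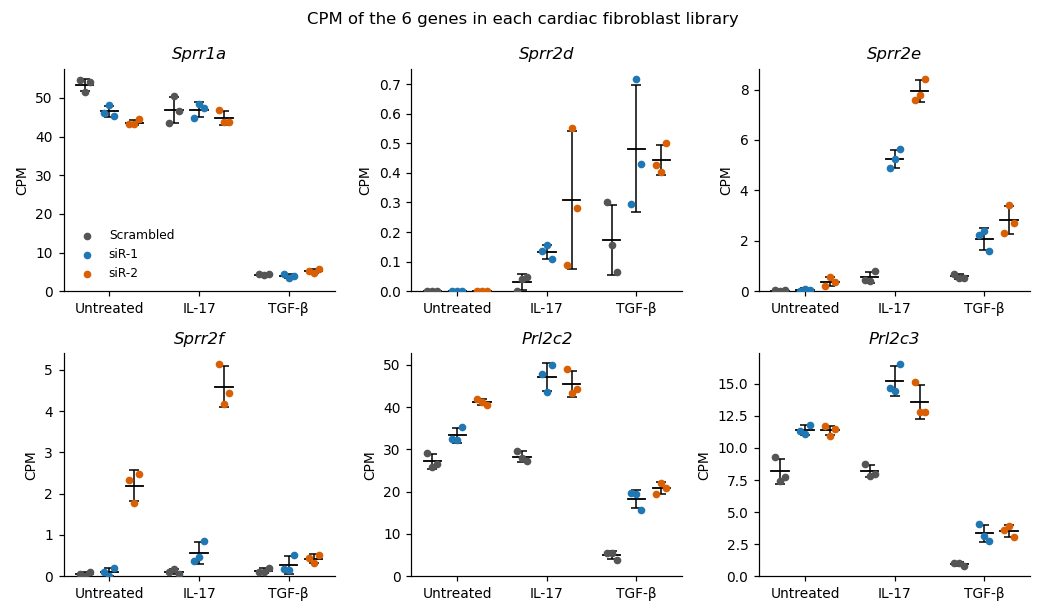
CPM of each of the 6 genes (linear y axis, its own scale per gene) in the 27 CF libraries, grouped by stimulus on the x axis and coloured by siRNA. Points are libraries, and the bar and whiskers are the mean ± SD of 3. Sprr1a was high in untreated and IL-17 cells and low under TGF-β with every siRNA, Sprr2e and Sprr2f were highest under IL-17 with siR-2, and Prl2c2 and Prl2c3 stood above Scrambled with both siRNAs in every table.

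Sprr1a, the cornified envelope precursor that lies apart from the Sprr2 row, was the most abundant of the 6 in untreated Scrambled cells per length, at 66.3 ± 1.99 CPM per kb of transcript (SD, n = 3), before Prl2c2 at 24.9 ± 1.66 and Prl2c3 at 6.01 ± 0.727. Its estimated counts in untreated CFs were 6596, 6183 and 6747 with Scrambled, 5227, 5402 and 5073 with siR-1, then 4999, 4904 and 5101 with siR-2. Under IL-17 they were 5224, 6060 and 5683, then 4909, 5324 and 5251, then 5340, 4987 and 4997 in the same order of siRNAs. Under TGF-β they were 493, 448 and 478, then 488, 384 and 443, then 549, 485 and 627. Every TGF-β library thus lay below every other CF library. The mean level was 53.4 ± 1.60 CPM in untreated Scrambled cells (SD, n = 3), 12.9% lower with siR-1 and 18.3% lower with siR-2, with no overlap. Under IL-17 the means of 46.9 ± 3.42, 46.9 ± 1.94 and 44.8 ± 1.77 CPM (SD, n = 3) overlapped, and under TGF-β that with siR-2 (5.23 ± 0.575 CPM, SD, n = 3) was 1.21-fold above Scrambled (4.31 ± 0.2 CPM, SD, n = 3). Among the 6 groups without TGF-β, untreated Scrambled stood above the rest and the others followed each other from 46.9 down to 43.6 CPM with overlapping libraries between neighbours.

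Sprr2e, a member of the Sprr2 row that encodes another envelope precursor, was at or under the floor in untreated cells with Scrambled and siR-1, above it there with siR-2, and highest when knockdown and IL-17 came together. In untreated CFs it had 5, 0 and 6 estimated counts with Scrambled, 0, 12 and 7 with siR-1, then 24, 66 and 41 with siR-2. Under IL-17 it had 52, 47 and 99, then 537, 576 and 622, then 864, 890 and 958 in the same order. Under TGF-β it had 77, 58 and 58, then 241, 261 and 173, then 245, 356 and 293. All siRNA libraries lay above all Scrambled libraries under both stimuli. The mean under IL-17 was 0.546 ± 0.232 CPM with Scrambled, 9.63-fold higher with siR-1 (5.26 ± 0.363 CPM) and 14.5-fold higher with siR-2 (7.93 ± 0.431 CPM, SD, n = 3 each). Under TGF-β the siRNA means were 3.53-fold and 4.82-fold above Scrambled, and in untreated cells siR-2 was at least 2.59-fold above it.

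Sprr2f, the next gene in the row, followed siR-2 far more than siR-1. Its estimated counts in untreated CFs were 7, 0 and 12 with Scrambled, 12, 0 and 23 with siR-1, then 271, 200 and 284 with siR-2. Under IL-17 they were 11, 22 and 7, then 40, 51 and 95, then 586, 476 and 507. Under TGF-β they were 11, 10 and 23, then 18, 15 and 56, then 46, 32 and 56. Among the 27 CF libraries, only the 6 siR-2 libraries without TGF-β stood above 95 estimated counts. In untreated cells siR-2 stood at 2.19 ± 0.376 CPM, at least 14.8-fold above Scrambled, and under IL-17 at 4.59 ± 0.499 CPM (SD, n = 3 each), 41.4-fold above a Scrambled mean of 0.111 CPM. With siR-1 the IL-17 mean was 5.08-fold above Scrambled.

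Sprr2d, the first of the 3 Sprr2 members along the chromosome, was the weakest. It had no read in any of the 9 untreated libraries, where a count of 0 allows up to the floor of 18 estimated counts. Under IL-17 it had 0, 5 and 6 estimated counts with Scrambled, 15, 17 and 12 with siR-1, then 10, 63 and 32 with siR-2. Under TGF-β it had 33, 17 and 7, then 32, 78 and 47, then 45, 42 and 54. Most of these values are worth a few read pairs, and no fold was given under IL-17 with siR-1, where both groups were at or under the floor. With siR-2 under IL-17 it was at least 2.06-fold above Scrambled, a value that rests largely on replicate 2 of siR-2, without which the fitted log2 difference went from 3.27 to 2.54, and under TGF-β the means were 2.78-fold and 2.56-fold above it with siR-1 and siR-2. Under TGF-β the siR-1 libraries overlapped Scrambled, and without TGF-β Scrambled replicate 1 the log2 values went from 1.47 to 2.13 for siR-1, then from 1.35 to 2.01 for siR-2.

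Summed over the 13 Sprr2 genes, the Scrambled level was 1.94 CPM in untreated cells, 3.21 under IL-17 and 2.65 under TGF-β. It was 1.93-fold and 4.26-fold higher with siR-1 and siR-2 in untreated cells, 5.29-fold and 8.82-fold under IL-17, and 2.84-fold and 2.62-fold under TGF-β. Reads that these copies share stay within the sum, apart from stretches of 50 bases that Sprr2a1, Sprr2a2 and Sprr2a3 share with Gm37428. With Scrambled, Sprr2e made up 1.39% ± 1.26 of the sum in untreated cells, 17.1% ± 7.72 under IL-17 and 22.1% ± 0.944 under TGF-β (SD, n = 3 each). With siR-2 its share was 4.66% ± 2.37, 28% ± 1.09 and 40.6% ± 6.27 (SD, n = 3 each). Sprr2f made up 26.6% ± 4.19 of the sum in untreated cells with siR-2 and 6.12% ± 1.70 under TGF-β with siR-2 (SD, n = 3 each). The make-up of the sum, and not only its size, thus differed between groups.

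**Figure D2:**
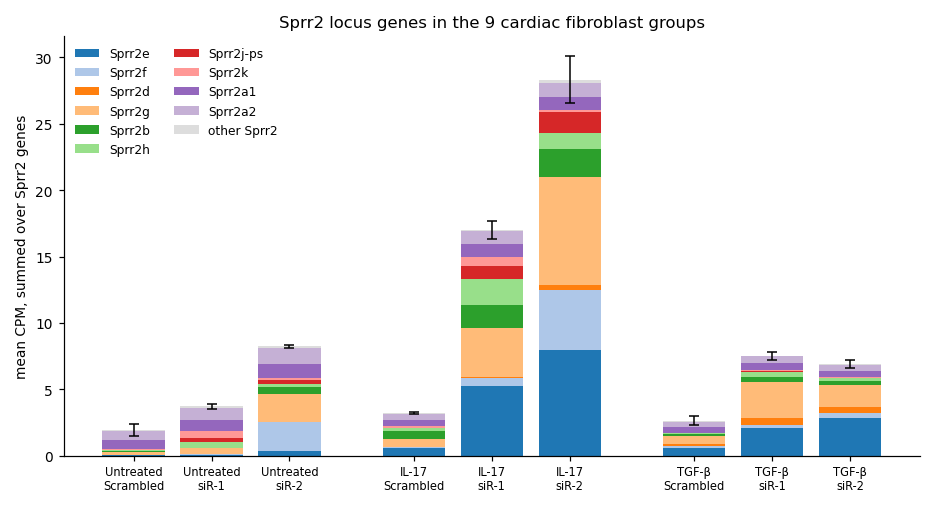
Mean CPM of the Sprr2 genes in the 9 CF groups, stacked by gene (y axis in CPM, linear from 0, x axis the stimulus and siRNA). The whisker is the SD of the summed level over 3 libraries. The sum was 1.94 CPM in untreated Scrambled cells and 28.3 CPM under IL-17 with siR-2, where Sprr2e, Sprr2g and Sprr2f were the widest bands.

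The proliferins moved as a pair. Prl2c2 had 3532, 3093 and 3301 estimated counts in untreated Scrambled cells, 3680, 3601 and 3954 with siR-1, then 4857, 4664 and 4658 with siR-2. Under IL-17 it had 3555, 3366 and 3307, then 5244, 4781 and 5521, then 5574, 4936 and 5040. Under TGF-β it had 608, 587 and 433, then 2115, 2110 and 1716, then 2051, 2298 and 2250. In all 3 tables every siRNA library lay above every Scrambled library, and the gap relative to Scrambled was widest under TGF-β. The Scrambled mean was 27.2 ± 1.80 CPM in untreated cells, 28.3 ± 1.29 under IL-17 and 4.95 ± 0.889 under TGF-β (SD, n = 3 each). Above these, siR-1 and siR-2 were 1.23-fold and 1.52-fold higher in untreated cells, 1.67-fold and 1.61-fold under IL-17, and 3.69-fold and 4.21-fold under TGF-β. In order of mean the groups ran from IL-17 with siR-1 (47.1 CPM) and siR-2 (45.5 CPM) through untreated siR-2 (41.2 CPM), untreated siR-1 (33.3 CPM), Scrambled under IL-17, untreated Scrambled, TGF-β with siR-2 (20.8 CPM) and siR-1 (18.2 CPM) to TGF-β Scrambled. The libraries of the first and second of these, of IL-17 and untreated Scrambled, and of the TGF-β groups with siR-2 and siR-1 overlapped.

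Prl2c3 stood lower and had higher means with both siRNAs in each table. It had 1124, 892 and 969 estimated counts in untreated Scrambled cells, 1286, 1241 and 1323 with siR-1, then 1353, 1240 and 1316 with siR-2. Under IL-17 it had 1044, 943 and 971, then 1606, 1582 and 1833, then 1726, 1466 and 1459, and under TGF-β 116, 116 and 85, then 442, 343 and 300, then 379, 405 and 325. Again every siRNA library lay above every Scrambled library of its table. The siRNA means were 1.40-fold and 1.39-fold above Scrambled in untreated cells, 1.86-fold and 1.66-fold under IL-17, and 3.46-fold and 3.64-fold under TGF-β. Across the 27 CF libraries Spearman's rho between the pair was 0.983, which is a description, since the genes share sequence and the libraries share groups. Prl2c2 took 73.9% to 87% of the summed Prl2c counts in every CF library, so that the sum (35.5 CPM in untreated Scrambled, 36.6 under IL-17 and 5.94 under TGF-β) moved as Prl2c2 did, with 1.26-fold, 1.49-fold, 1.71-fold, 1.62-fold, 3.68-fold and 4.12-fold higher means in the same order of tables and siRNAs.

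Counted by the call rule, and only as a description of contrasts that chose the genes, none of the 5 members tested was called with siR-1 in untreated cells, where 2.15% of all genes were called higher and 2.61% lower. With siR-2 in untreated cells, 2 of 5 (Sprr2e and Sprr2f) were called higher, against 3.42% of all genes higher and 7.23% lower. Under IL-17, 4 of 6 were called higher with siR-1 (background 5.58% higher and 7.97% lower) and 5 of 6 with siR-2 (8.06% higher and 13.7% lower). Under TGF-β, 4 of 6 were called higher with siR-1 (2.45% higher and 1.91% lower) and 4 of 6 with siR-2 (2.07% higher and 5.44% lower). No member was called lower in any of these 6 comparisons. The comparisons of siR-1 and siR-2 in a table share its Scrambled libraries, so that their values stand side by side here and are no support for each other.

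The stimuli were compared in a fit of all 27 CF libraries, first with Scrambled alone. The libraries compared here and below, Scrambled and siRNA alike, also entered the choice of the 6 genes, though by another contrast, so their p-values are not fully independent of that choice. IL-17 left Sprr1a and the proliferins near their untreated level and lifted Sprr2e off the floor. Sprr2e rose at least 3.69-fold and was called by edgeR, and all 3 IL-17 libraries lay above all 3 untreated ones. Its untreated Scrambled libraries were at or under the floor, and Sprr2e was chosen for rising above Scrambled. Its calls against these libraries, here and under TGF-β, are therefore a description, without a p. Sprr2d was called too, but it is at 0 in every untreated library and passed the filter on low counts only through the stimulated groups, so its calls against untreated cells, here and below, are counted without a p and support nothing. Both groups were at or under the floor, so no size is given, and the call ended without any of 5 of the 6 libraries (all but IL-17 replicate 1). For Sprr1a the difference was −0.19 (SE 0.0653, adjusted p = 0.0575), for Prl2c2 0.06 (SE 0.0891, adjusted p = 0.846) and for Prl2c3 0.00 (SE 0.116, adjusted p = 1), all in log2 units. Thus 2 of 6 members were called higher and none lower, where 1.10% of all genes were called higher and 0.353% lower. Summed, the Sprr2 genes differed by 0.73 (SE 0.112), which is under the threshold on size, and the Prl2c sum by 0.04. The Sprr2 sum holds the chosen members, so its values against untreated cells, here and under TGF-β, are a description, without a p.

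Under TGF-β, in Scrambled cells, Sprr1a and the proliferins fell sharply while Sprr2e rose. Sprr1a fell by 3.63 on the log2 scale (SE 0.0755, adjusted p = 1.14e-27 by edgeR), from 53.4 to 4.31 CPM, which is 91.9% lower. Prl2c2 fell by 2.46 (SE 0.0979) and Prl2c3 fell by 3.08 (SE 0.136), and in these 3 genes every TGF-β library lay below every untreated one. The proliferins were chosen for rising above Scrambled, so low TGF-β Scrambled values entered that choice. Their falls are therefore a description, without a p. Sprr2e rose at least 3.97-fold, and Sprr2d stood at least 1.17-fold above its zeros through replicate 1 alone. The other TGF-β libraries of Sprr2d (17 and 7 estimated counts) were under the floor. In all, 2 members were called higher and 3 lower, where 11.7% of all genes were called higher and 9.14% lower. The Prl2c sum fell by 2.58 (SE 0.101), and the Sprr2 sum was 0.45 higher (SE 0.113), under the threshold on size. Set against IL-17 in place of untreated cells, Sprr1a fell by 3.44, Prl2c2 fell by 2.51 and Prl2c3 fell by 3.08, Sprr2d was called at least 1.16-fold higher (a call that ended without IL-17 replicate 1 or without TGF-β replicate 1), and Sprr2e did not pass (0.10, adjusted p = 0.857), with 11.6% of all genes called higher and 9.85% lower. These comparisons share their libraries, and in bulk RNA fewer cells of a type and less RNA per cell cannot be told apart.

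**Figure D3:**
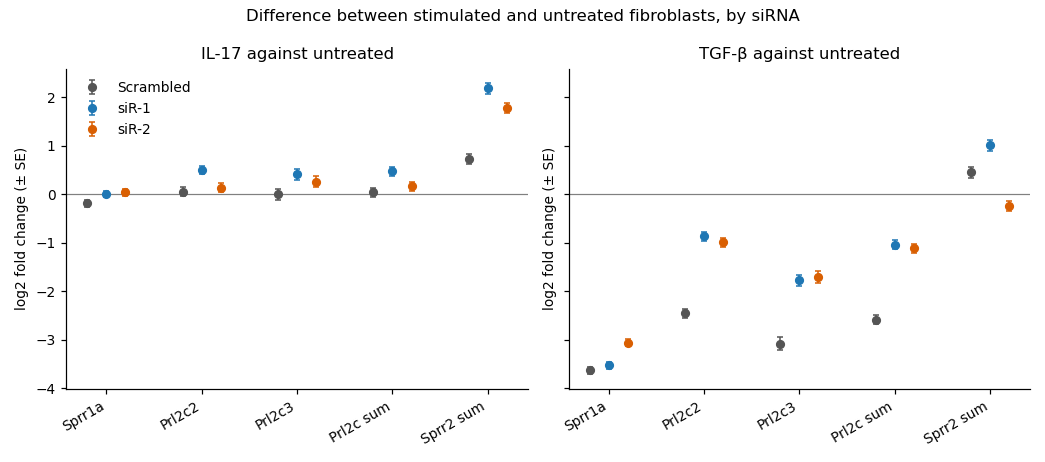
Log2 fold change (± SE, edgeR fit of 27 libraries) of IL-17 (left) and TGF-β (right) against untreated CFs for Sprr1a, Prl2c2, Prl2c3 and the Prl2c and Sprr2 sums, by siRNA. With TGF-β, Sprr1a stood between −3.63 and −3.06 and the Prl2c sum at −2.58 with Scrambled against −1.04 and −1.11 with the siRNAs, and with IL-17 only the Sprr2 sum stood clear of 0 with every siRNA (0.73, 2.19 and 1.78).

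In cells with an IAMP siRNA the summed Sprr2 response to IL-17 was larger in size than with Scrambled and that of the proliferins to TGF-β smaller, although whether these responses differed from Scrambled was not tested, because the contrasts behind the difference chose the genes. The members were chosen for rises in these siRNA libraries, which Sprr1a did not show. In siRNA cells the values of the other members and of the family sums are therefore a description, without a p. With siR-1, Sprr2e was at least 32.8-fold higher under IL-17 and Sprr2f, which was called, was 5.42-fold higher. With siR-2 Sprr2e was 20.7-fold higher. The siR-1 call of Sprr2f ended without untreated siR-1 replicate 1, without untreated siR-1 replicate 2 and without IL-17 siR-1 replicate 3. It also ended with no filter on low counts and with the 2 groups fitted alone. The log2 fold change of Sprr2f, 2.43, ran from 1.85 to 3.38 (without untreated siR-1 replicate 2 or 3). Sprr2f itself stood 2.09-fold higher under IL-17 with siR-2, which was not called. With siR-1, 3 of 6 members were called higher and none lower, the third being Sprr2d at the floor (1.28% and 0.550% of all genes), and with siR-2 2 of 6 higher and none lower (1.19% and 0.465%), Sprr2d being at least 1.95-fold higher, though its fitted log2 value went from 8.12 to 7.39 without IL-17 siR-2 replicate 2. The Sprr2 sum rose 4.55-fold with siR-1 (log2 fold change 2.19, SE 0.107) and 3.44-fold with siR-2 (1.78, SE 0.104). Prl2c2 stood 1.41-fold higher with siR-1 (under the threshold on size) and 1.10-fold with siR-2, neither of them called.

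Under TGF-β, Sprr1a fell by 91.3% with siR-1 (log2 fold change −3.53, SE 0.0756, adjusted p = 3.15e-27 by edgeR) and by 88% with siR-2 (−3.06, SE 0.0737, adjusted p = 5.16e-26). Prl2c3 fell by 70.8% and 69.2%, whereas Prl2c2 was 45.2% and 49.5% lower, differences of −0.87 and −0.99 that were under the threshold on size. The Prl2c sum fell with both (−1.04, SE 0.093, and −1.11, SE 0.0928). Sprr2e rose at least 12.9-fold with siR-1 and 7.39-fold with siR-2, and Sprr2d stood at least 3.01-fold and 2.83-fold higher. Sprr2f was 80.8% lower with siR-2, every TGF-β library lying below every untreated one. Those untreated siR-2 libraries hold the rise that chose Sprr2f, so this fall is a description, without a test. In siR-1 cells 2 members were called higher and 2 lower (11.9% and 8.04% of all genes), and in siR-2 cells 2 were called higher and 3 lower (12% and 8.06%). The Sprr2 sum rose 2.01-fold with siR-1 (1.01, SE 0.106) and was 15.9% lower with siR-2 (−0.25, SE 0.103, under the threshold on size).

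The siRNAs were also set against each other. These libraries are among those that chose the genes, so the values for the members and the Sprr2 sum are a description, without a test. In untreated cells Sprr2f was 21.1-fold higher with siR-2 than with siR-1 (log2 fold change 4.38, SE 0.928) and under IL-17 8.15-fold (3.01, SE 0.315), with no overlap between libraries, whereas under TGF-β the libraries overlapped (0.63, SE 0.563). The untreated siR-1 counts are few, and leaving out 1 library moved the first value from 4.38 to between 3.80 and 5.33 (without siR-1 replicate 2 or 3) and the last to between 0.31 and 1.46 (without the same numbers under TGF-β). Sprr2e with siR-2 stood at least 2.39-fold above its siR-1 level in untreated cells and 1.51-fold above it under IL-17 (0.58, SE 0.167). Prl2c2 was 1.24-fold higher with siR-2 in untreated cells (0.29, SE 0.0554) and Prl2c3 gave −0.02 (SE 0.0862). By the call rule, 2 of 5 members were higher and none lower in untreated cells (2.24% and 4.41% of all genes), 1 of 6 higher and none lower under IL-17 (6.07% and 9.62%), and none of 6 in either direction under TGF-β by edgeR (0.840% and 3.12%), with 2 of them (Sprr1a and Sprr2e) at an unadjusted p under 0.05 and 0 called by DESeq2. Under TGF-β with family rows summed, Sprr1a (0.37, SE 0.123) missed the call on size alone. The count in untreated cells was 1, Sprr2f, with the replicate number as a block, with no filter on low counts, with the values divided by 6, and without siR-1 replicate 1 or 3 or siR-2 replicate 2 or 3. The count under IL-17 was 2, with Sprr2e, by DESeq2, with RLE size factors, with no filter on low counts, with the 2 groups alone, and without siR-1 replicate 3 or siR-2 replicate 1 or 2. The Sprr2 sum was 1.13 and 0.73 higher on the log2 scale with siR-2 in untreated and IL-17 cells and differed by −0.12 under TGF-β. The siRNAs also differed in knockdown, 4930523C07Rik being 38.7%, 32.8% and 24.9% lower with siR-2 than with siR-1 in the 3 tables, and the part of this in the result was not tested.

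Beyond the 6 members, the tables held 13 other Sprr genes and 24 other prolactin genes, and of the families as a whole 13 of 17 Sprr and 10 of 26 prolactin genes stood above the floor in at least 1 CF library. Under IL-17 the neighbours of the Sprr2 members were higher with the siRNAs too. Sprr2g, the gene just after Sprr2f and annotated as a polymorphic pseudogene, had 54, 63 and 87 estimated counts under IL-17 with Scrambled (lowest, median and highest), 346, 416 and 435 with siR-1, then 841, 954 and 986 with siR-2, and its level was 6.44-fold and 14.4-fold above Scrambled. Sprr2b and Sprr2h were 2.90-fold and 9.76-fold higher with siR-1 and 3.55-fold and 6.00-fold higher with siR-2. Of 9 other Sprr genes tested under IL-17, 7 were called higher and none lower with siR-1, while siR-2 gave 6 higher and 1 lower, beside 5.58% higher and 7.97% lower of all genes for siR-1, then 8.06% and 13.7% for siR-2. In Scrambled cells Sprr2b and Sprr2g were called higher under IL-17 alone, 2 of the 9 tested, with none lower (1.10% and 0.353% of all genes). Sprr2b rose at least 4.13-fold, and its call is counted without a p, its untreated libraries being under the floor. Sprr2g rose by 1.45 on the log2 scale (SE 0.322, adjusted p = 0.00184 by edgeR).

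Some family members went with a single siRNA or against the rest. Sprr3, which encodes a related envelope protein and lies between Sprr1b and Sprr1a, had 193, 216 and 216 estimated counts in untreated cells with siR-1 (lowest, median and highest) against 36, 81 and 107 with siR-2. It was lower with siR-2 than with siR-1 in untreated cells (log2 fold change −1.52, SE 0.325, adjusted p = 0.000996 by edgeR), under IL-17 (−1.62, SE 0.297, adjusted p = 0.000201) and under TGF-β (−1.21, SE 0.165, adjusted p = 3.60e-05), and it rose under TGF-β in Scrambled cells (1.13, SE 0.276, adjusted p = 0.000732), where Sprr1a fell. Sprr2k, at the far end of the Sprr2 row, was lower with siR-2 than with siR-1 in untreated cells (−1.79, adjusted p = 0.0251) and under IL-17 (−2.06, adjusted p = 0.00125), the opposite of Sprr2f. Its siR-2 libraries lay around the floor, with 24, 19 and 5 estimated counts in untreated cells and 12, 21 and 23 under IL-17. Prl8a9, a prolactin family gene of the placenta, had 35 to 86 estimated counts in untreated Scrambled cells, 466 to 489 in siR-1 cells and 95 to 163 in siR-2 cells, and was lower with siR-2 than with siR-1 in untreated (−1.92, adjusted p = 2.21e-05) and IL-17 cells (−2.09, adjusted p = 3.77e-06). Prl3a1 was at 0 in the untreated Scrambled libraries and at 264 to 332 under TGF-β, and its call is counted without a p. Prl, prolactin itself, had 142 to 209 and then 0 to 13, which is under the floor, and its call is counted without a p too.

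**Figure D4:**
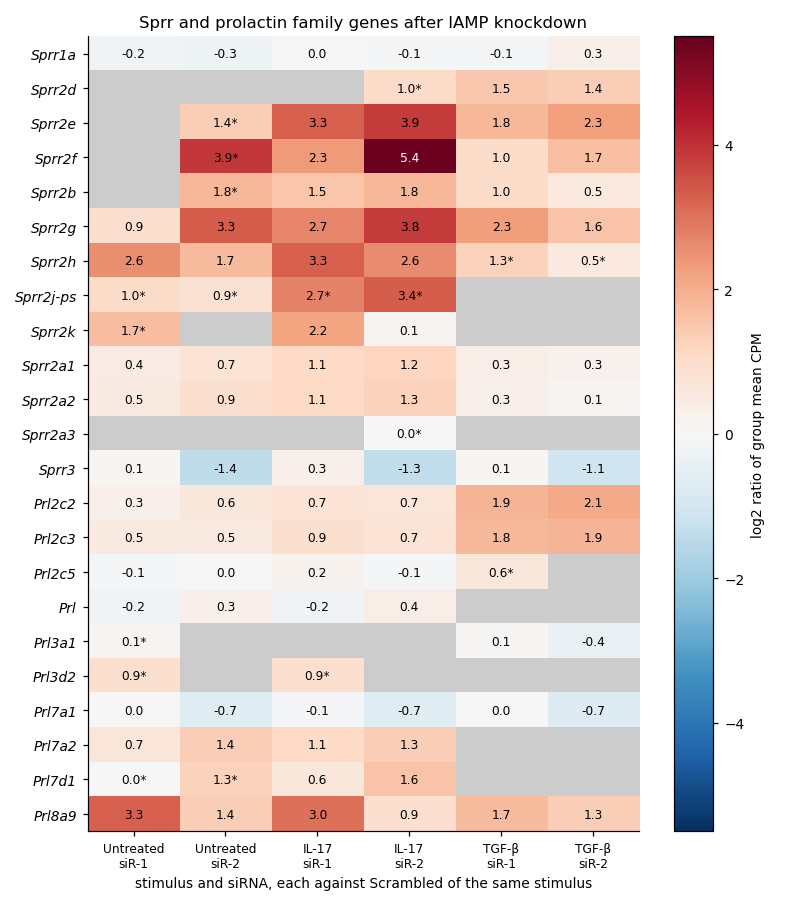
Log2 ratio of mean CPM, siRNA against Scrambled of the same stimulus (columns), for the 23 Sprr and prolactin family genes above the floor in a CF library (rows). An asterisk marks a lower bound set against the floor, and grey a cell with both groups at or under the floor or a bound under 1. The Sprr2 rows were positive in all cells with a value, the Sprr3 row was negative with siR-2 (62.2%, 60.6% and 53.2% lower), and Sprr1a stayed within 18.3% below and 1.21-fold above Scrambled.

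Other genes of the cornified envelope and barrier, from a list of 43, were mostly absent, with 15 tested in the fit of all CF libraries. Of these, 1 was called higher and 7 lower under TGF-β in Scrambled cells, where 11.7% and 9.14% of all genes were, with a median log2 fold change of −1.31 beside 0.02 over all genes. Under IL-17 edgeR called none in either direction (median −0.28), where 1.10% of all genes were called higher and 0.353% lower. Of any size, 2 had an adjusted p within 0.05, both lower. By that rule no share of all genes is given, but 4914 of 22359 had an unadjusted p under 0.05. Crct1, a gene of the same complex, fell with TGF-β from 38.8 ± 0.992 to 3.45 ± 0.246 CPM (SD, n = 3 each), Ppl, the envelope scaffold periplakin, from 23.5 ± 1.03 to 3.78 ± 0.707 CPM and Ivl, involucrin, from 5.89 ± 0.536 to 0.581 ± 0.179 CPM, whereas Sbsn rose from 1.58 ± 0.118 to 3.93 ± 0.314 CPM. Against Scrambled, siR-1 gave 1 of 13 higher and 4 lower in untreated cells, 4 of 11 higher and 3 lower under IL-17, and 2 of 12 higher and none lower under TGF-β, beside 2.15% and 2.61%, 5.58% and 7.97%, and 2.45% and 1.91% of all genes. The counts for siR-2 were 0 higher and 1 lower, 3 higher and 2 lower, and 0 higher and 1 lower in the same tables, beside 3.42% and 7.23%, 8.06% and 13.7%, and 2.07% and 5.44% of all genes. Lor, loricrin, the main protein of the finished envelope, fell with siR-2 in untreated cells from 3.81 ± 0.501 to 0.945 ± 0.0504 CPM and under IL-17 from 2.93 ± 0.618 to 0.523 ± 0.123 CPM (SD, n = 3 each). The more abundant Crct1 stood at 64 ± 3.21 CPM in untreated siR-2 cells, under the threshold on size, and rose with siR-2 under IL-17 from 31.8 ± 2.02 to 53.2 ± 2.05 CPM (SD, n = 3 each). The list summed to 80.2 to 82.9 CPM in untreated Scrambled libraries, 107 to 111 CPM for siR-1, then 115 to 125 CPM for siR-2.

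Of 15 AP-1 and partner factors, none was called in either direction under IL-17 in Scrambled cells (1.10% and 0.353% of all genes). Their median log2 fold change was 0.39 beside −0.01 over all genes. With no threshold on size, 8 were higher and 2 lower within an adjusted p of 0.05 by edgeR. The share of all genes by that rule is not given, but 4914 of 22359 had an unadjusted p under 0.05. Under TGF-β 2 were called higher and 3 lower (11.7% and 9.14% of all genes). Junb rose under TGF-β (1.31, SE 0.0451, adjusted p = 4.80e-22 by edgeR) and Ets1 fell by 1.39 (SE 0.0334, adjusted p = 4.36e-26). Against Scrambled, siR-2 gave 0 of 13 higher and 1 lower in untreated cells (3.42% and 7.23% of all genes), 3 of 13 higher and 2 lower under IL-17 (8.06% and 13.7%) and 1 of 15 higher and 0 lower under TGF-β (2.07% and 5.44%). For siR-1 the counts were 0 and 0 in untreated cells (2.15% and 2.61%), 0 higher and 2 lower under IL-17 (5.58% and 7.97%), and 0 and 0 under TGF-β (2.45% and 1.91%). Without that threshold, edgeR put 4 higher and 6 lower in untreated siR-1 cells, 3 and 8 under IL-17 and 4 and 2 under TGF-β. In siR-2 cells these were 7 and 3, 4 and 5, and 5 and 2 in the same order. The share of all genes by that rule is not given. With siR-1, 9001 of 19669, 9537 of 19906 and 6466 of 19891 genes had an unadjusted p under 0.05 in these tables. With siR-2 it was 10491, 10831 and 7550 of the same genes. Among 18 genes of the gp130 cytokine axis, 6 rose and none fell under IL-17 (median 0.76), where 1.10% of all genes rose and 0.353% fell. Under TGF-β 7 rose and none fell past the threshold on size (11.7% and 9.14% of all genes), while 7 were lower at an adjusted p of 0.05 regardless of size (median 0.12). Il6 rose from 19.4 ± 0.777 to 262 ± 16.3 CPM under IL-17 and stood at 786 ± 19.3 CPM there with siR-2 (SD, n = 3 each). Of 8 proliferin and prolactin receptors and their signalling genes, 1 was called higher under IL-17 (1.10% of all genes) and 1 lower under TGF-β (9.14% of all genes), the latter being Igf2r, the receptor that proliferin binds, which fell from 647 ± 35.4 to 242 ± 16.9 CPM (SD, n = 3 each).

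Since Sprr and Prl2c genes are best known from keratinocytes and placenta, markers of other cell types were read beside them. All 12 fibroblast markers were above the floor in every CF group, with a summed level of 16839 to 24251 CPM per library. Of 14 keratinocyte markers, 7 were at 0 in every untreated Scrambled library (Krt1, Krt5, Krt14, Krt17, Krt6a, Krt6b and Dsg3), and the sum of 18.1 to 20.5 CPM there was mostly Perp (14.1 CPM). This sum was lower with both siRNAs, at 11.8 to 13.9 and 13 to 14 CPM, and higher under TGF-β, at 38.9 to 43.7 CPM with Scrambled, mostly Sfn. In untreated cells it was thus lower with the siRNAs as Sprr1a was (12.9% and 18.3% lower), while the Sprr2 sum was higher, and with TGF-β in Scrambled cells it was higher as the Sprr2 sum was (1.37-fold), while Sprr1a was lower. The part of these markers in the results was not tested. Of 10 trophoblast markers the sum was 1.03 to 1.24 CPM in untreated Scrambled cells, mostly Psg17, with 5 at 0, and 2.18 to 2.88 CPM under TGF-β. Of 12 mesothelial and epithelial markers the sum was 145 to 160 CPM in untreated Scrambled cells (Lrrn4 54.3 CPM), 91.2 to 97.2 with siR-2, 71.2 to 75.1 under IL-17 with siR-2 and 47.4 to 54.1 under TGF-β with Scrambled. For siR-1 cells this sum was 137.5 to 143.8 CPM untreated. Under IL-17 it was 113.2 to 116.7 CPM there, overlapping the 112.5 to 116.1 CPM of Scrambled. Single markers went both ways under TGF-β in Scrambled cells, 4 being called higher and 5 lower (11.7% and 9.14% of all genes). Their sum fell together with Sprr1a and the proliferins under TGF-β, and its part in that result was not tested. Of 12 endothelial markers, 5 were called higher and 2 lower under TGF-β in Scrambled cells (11.7% and 9.14% of all genes). Their sum was 114 to 128 CPM in untreated Scrambled cells and 146 to 149 CPM under TGF-β. In untreated cells it was 98.4 to 106 CPM with siR-1 and 93.1 to 97.7 CPM with siR-2, groups in which Sprr1a was lower too. Under IL-17 it was 126 to 133 CPM with Scrambled, then 102 to 107 and 94.2 to 101 CPM. Under TGF-β the siRNA sums were 156 to 160 and 144 to 152 CPM. The part of these markers was not tested. Of 12 macrophage markers, 5 were called higher and 3 lower under TGF-β in Scrambled cells (11.7% and 9.14% of all genes). Their sum was 66.2 to 70.6 CPM in untreated Scrambled cells and 165 to 173 CPM under TGF-β, mostly Lyz2. With siR-2 the macrophage sum was 83.2 to 87.2 CPM in untreated cells and 85.3 to 94.4 CPM under IL-17 (66.5 to 68.6 CPM for Scrambled there), groups in which the Sprr2 and Prl2c sums were higher too. In siR-1 cells it was 64.4 to 68.5 CPM untreated, overlapping Scrambled, but 72.7 to 77.8 CPM under IL-17. Under TGF-β it was lower in siRNA cells, 133 to 148 CPM for siR-1, then 148 to 154 CPM for siR-2, while both sums were higher, and its part was not tested. Of 12 cardiomyocyte markers, the sum was 91 to 98.4 CPM in untreated Scrambled cells, nearly all of it Tnnt2 (93.5 CPM), with Myh6, Myh7 and Myl7 at 0. It was 42.7 to 47.7 CPM there with siR-1, 28.5 to 33.4 CPM with siR-2 and 5.9 to 6.58 CPM under TGF-β with Scrambled, groups in which Sprr1a was lower too. Under IL-17 it was 70.3 to 77.3 CPM with Scrambled, but 32.7 to 36.1 CPM in siR-1 cells, then 23.7 to 26.3 CPM in siR-2 cells, where the Sprr1a libraries overlapped, and under TGF-β with siR-2 it was 3.89 to 4.41 CPM, where Sprr1a stood above Scrambled. The part of these changes in the Sprr1a result was not tested.

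In the hearts the 6 genes were all but silent. Sprr2d, Sprr2e, Sprr2f, Prl2c2 and Prl2c3 had 0 counts in all 8 hearts, where 0 allows up to 3 counts. Sprr1a had 0, 6, 5 and 6 counts in the HET hearts and 0, 3, 0 and 3 in the KO hearts, which overlap. None of the 6 passed the filter on low counts, so none was tested, and edgeR called no gene at all (0% of 16675 tested, with 601 genes at an unadjusted p under 0.05 and 2 called by DESeq2). All 26 prolactin genes and 12 of 17 Sprr genes were at 0 in every heart. The rest of the Sprr2 sum, 12 to 42 counts in HET and 16 to 34 in KO hearts, came mostly from Sprr2a1 (5 to 17 and 6 to 13 counts) and Sprr2a2 (5 to 17 and 6 to 14), near copies that share 92.5% and 92.8% of their 100-base stretches, and the sum did not pass (−0.14, SE 0.365, adjusted p = 1 by edgeR). The 12 cardiomyocyte markers summed to 60070 to 65345 CPM and the fibroblast markers to 842 to 1240 CPM in these hearts.

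The genes whose level followed the members most closely over the 27 CF libraries, out of 13309 genes averaging 1 CPM or more, are given by Spearman's rho. For Sprr1a they were Tipin (0.915), Smco4 (0.896), Arhgap22 (0.896), Rps19 (0.894) and Cadm1 (0.886). For the Sprr2 sum they were Tma16 (0.969), Smg8 (0.958), Dnajb6 (0.954), Rai14 (0.949) and Zfp263 (0.946). For the Prl2c sum they were Tes (0.979), Cflar (0.974), Nop16 (0.973), Eif4e (0.971) and Pop1 (0.969). The libraries share their groups, tables and normalization, so that any gene that follows stimulus and siRNA in the same order ranks high. Among the members themselves, rho was −0.613 between Sprr1a and Sprr2d, 0.764 between Sprr2d and Sprr2e, 0.62 between Sprr2e and Sprr2f, and 0.266 between Sprr2e and Prl2c2.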

How the data were processed

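Adult mouse CFs (27 libraries) and hearts (8) were sequenced by the authors from BGIseq/MGIseq libraries, and the 4 deposited tables held whole numbers for 55487 genes without normalization. Per the labels' processing notes, Cutadapt, HISAT2, StringTie and GRCm38 were used. The deposited CF values were read as estimated counts (expected counts from StringTie's coverage), since values seen once cluster at 6 in long genes, and the deposited heart values as counts. Strand use in counting was not given in the sources used here. All deposited columns were used. Columns named by siRNA code were matched to siR-1 and siR-2 through the descriptions of the TGF-β samples.

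From these, R 4.3.3 with edgeR 4.0.16 (limma 3.58.1) gave TMM-normalized CPM and robust quasi-likelihood fits, with edgeR's filter on low counts and Benjamini-Hochberg adjustment over all genes tested, 22359 over the 27 CF libraries, 19669 (untreated), 19906 (IL-17) and 19891 (TGF-β) within a table and 16675 in hearts. Standard errors were obtained from the log2 fold change and the F statistic. The fits were tested on simulated data. Depth limits genes near 18 estimated counts, and a stimulus and its table cannot be told apart. Alternatives were DESeq2 1.42.0, RLE size factors, no filter, values divided by 6, summed family rows, a fit of only both groups compared, a block on replicate number, the other size threshold, and each library left out.

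Genes named are the 6 members, other Sprr and prolactin genes above the floor, up to 4 abundant genes of each list, list genes past the threshold with both siRNAs in at least 2 tables, and the 5 closest by rho. Members, lists and tests were chosen with earlier results of these data known. Promoters were taken from RefSeq (GRCm38.p6) by symbol, with 5 of 6 members matched, and transcripts and positions from GENCODE vM21, in which 55141 identifiers were found.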

Additional observations from a re-analysis of the deposited data

Results flagged for a closer look

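In these results every library of one group moved one way and every library of the other the opposite way. None of the differences was tested. Values are log2 ratios of mean CPM plus 0.01. TGF-β against untreated CFs gave 1.78 for Sprr2b with Scrambled and −0.97 with siR-2, a difference of 2.76, and 2.73 with siR-1, a difference of 3.7 from siR-2. Untreated Sprr2b was under the floor with Scrambled and siR-1, so these ratios are not sizes. As bounds it was at least 1.23-fold and 2.32-fold higher there, and it was 50% lower with siR-2. For the Sprr2 sum the same contrast gave 0.45 with Scrambled and 1.01 with siR-1 against −0.25 with siR-2, differences of 0.70 and 1.26. Sprr1a with siR-2 against Scrambled stood at −0.29 in untreated CFs and at 0.28 under TGF-β, a difference of −0.57.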

How the results depend on the processing

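Counts of called members are given as found and, after "to", under another setting. For IL-17 against untreated Scrambled cells the count went from 2 to 1 under DESeq2, with values divided by 6 and with the 2 groups alone, Sprr2e being called each time, and to 0 with family rows summed. Summing rows, which leaves 3 rows to call, gave 2 for TGF-β against untreated and 2 against IL-17 (Scrambled) and 2 with siR-2 (Sprr1a and the Prl2c sum each time), 1 for IL-17 in siR-1 cells, 1 in siR-2 cells and 1 for siR-2 against siR-1 in untreated cells (the Sprr2 sum). That last count went from 2 to 1 with no filter, with values divided by 6 and with the replicate number as a block, Sprr2f being called each time. For siR-2 against siR-1 under IL-17 it went from 1 to 2 (Sprr2e and Sprr2f) under DESeq2, with RLE size factors, with no filter and with the 2 groups alone. Prl2c3 under IL-17 in Scrambled cells gave −0.00 under DESeq2 and RLE size factors. The cause was not tested for any of these. Leaving out 1 library gave 1 to 2 calls for IL-17 and 5 to 5 for TGF-β against untreated with Scrambled, 2 to 3 and 4 to 5 with siR-1, 2 to 2 and 5 to 6 with siR-2, 3 to 4 for TGF-β against IL-17, 1 to 2, 1 to 2 and 0 to 0 for siR-2 against siR-1 (untreated, IL-17, TGF-β), and 0 to 0 in hearts. Among the members' differences between an siRNA and Scrambled, 27 were above 0, and 27 to 28 without 1 library. Those below 0 were all for Sprr1a. These contrasts chose the genes, so the count is only a description. Log2 values that changed sign when 1 library was left out ranged from −0.06 to 0.10 (Prl2c3, IL-17 against untreated, Scrambled), −0.01 to 0.04 (Sprr1a, same, siR-1), −0.06 to 0.05 (Sprr1a, siR-1 against Scrambled, IL-17), −0.11 to 0.50 (Sprr2e) and −0.21 to 0.82 (Sprr2f) for TGF-β against IL-17, and for siR-2 against siR-1 from −0.04 to 0.01 (Prl2c3, untreated), −0.05 to 0.25 (Prl2c3, TGF-β) and −0.37 to 0.29 (Sprr2d, TGF-β). None of these was called. The replicate numbers did not pair the samples, since of 27 pairs of libraries with the same number in the same table, 0 had correlated deviations above 0.1 (−0.245 to 0.1). Across all CF groups 16 of 108 such pairs did (−0.288 to 0.325), and 11 of 27 libraries were closest to their own number. The heart columns carry no replicate number, so the block was fitted to the CF libraries alone. Depth limits Sprr2d, and Sprr2f with Scrambled and siR-1, most of whose values are a few read pairs.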
